A study of Homo sapiens with 5 samples.

Results

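DNase I peaks around ATF3 and BATF3, neighbouring genes on the long arm of chromosome 1, were compared between 5 cultured human lines of B-cell origin, 3 from Hodgkin lymphoma and 2 from other B-lineage cancers. The stretch was taken as every deposited peak overlapping 210.78 to 211.00 Mb on chromosome 1 (hg18), a window of 220 kb that holds ATF3 at about 210.805 to 210.861 Mb and BATF3 at about 210.926 to 210.940 Mb. It contained 105 of the 109231 peaks listed on chromosomes 1 to 22 and X. Joined where they shared at least 1 bp, these peaks formed 61 of the 59212 merged regions of all lists. The window was chosen by the presence and score of these peaks in the same lists, so their number, position and score in each line are given as a description and carry no test.

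The Hodgkin group consisted of L1236, L428 and L591, cultured lines from Hodgkin lymphoma. The non-Hodgkin group consisted of Reh, a pro-B lymphoblastic leukaemia line, and Namalwa, a Burkitt lymphoma line. All were untreated, grown in the same medium and used at passage 7, and nuclei were digested with DNase I. The enzyme concentration was 12 U/ml in L591 and Namalwa and 6 U/ml in the other lines. Each line was represented by 1 library and 1 peak list, so a group's spread is that between lines. A single list per line leaves no error within a line. The lists held 25646 peaks for L1236, 23288 for L428 and 26612 for L591, against 27925 for Reh and 5760 for Namalwa. The read depth behind them is unknown, and the Namalwa list is so short that the absence of a Namalwa peak carries little weight. The score of a peak is the authors' peak area. It has no scale common to the lists, so it is given as a percentile within the line's own list, where 100 is the highest-scoring peak.

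ATF3 and BATF3 encode basic leucine zipper proteins, which bind DNA as dimers. ATF3 belongs to the ATF/CREB branch and is known as a gene switched on quickly by cell stress. BATF3 is a small AP-1 factor that pairs with JUN proteins and, with IRF4 or IRF8, binds composite AP-1 and IRF sites, and in mice it is needed for a class of dendritic cells. Hodgkin lymphoma cells are known for strong AP-1 activity, with both genes among the AP-1 members they express. In the RefSeq gene order 3 genes lie between them, the protein-coding GARIN4 (also FAM71A), the non-coding LINC02773 and the pseudogene RFKP5, and the protein-coding gene that follows BATF3 is NSL1.

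The outermost ATF3 promoter is shown because the L1236 peak at 210805261 to 210805420 is the nearest to the start of ATF3. It lies 261 bp from that start, which the window's definition gives only to the nearest kb. This peak is the weakest of L1236 in the window (percentile 0.614), and no other line had a peak there. The sequence is RefSeq's, from chr1:212565157-212565456 on the plus strand of GRCh38.p14, 300 bases running from 250 before the annotated start to 50 after it. Capitals mark a match to TGACNTCA, the cyclic AMP response element (CRE) with 1 base left free, a form searched for after the sequence had been read.
ATF3 promoter: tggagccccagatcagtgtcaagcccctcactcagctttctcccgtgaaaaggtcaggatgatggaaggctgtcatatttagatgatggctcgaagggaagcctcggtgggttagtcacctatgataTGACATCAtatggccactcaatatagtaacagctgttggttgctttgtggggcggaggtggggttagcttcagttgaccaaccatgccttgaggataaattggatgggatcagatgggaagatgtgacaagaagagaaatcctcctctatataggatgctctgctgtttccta
The match starts at base 128 of the 300, counted from the 5′ end. TGACNTCA was present on either strand in 7.72% of the 35116 promoters of the table, and these include all promoters with the strict CRE, TGACGTCA (1.85%). Neither the strict CRE, nor the AP-1 motif TGANTCA (7.71% of promoters), nor the kappa B motif (11.3%) was found in this window of ATF3. An inner ATF3 promoter of the table held no match to any of the 4 motifs. ATF3 promoters without an entry in the table were not searched, so these motif results hold for the listed ones only. Among 15 genes of AP-1 proteins and their relatives, 12 had an entry, with 18 promoters in all. TGANTCA was found in 1 of these (FOSL2), the strict CRE in 1 (JUND), the kappa B motif in 4 (ATF7 and JDP2) and TGACNTCA in 4 (ATF3, BATF2, JUN and JUND). The sequence is of another genome build than the peaks, so no peak was placed on it.

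The window held more peaks in each Hodgkin line than in Reh, and none in Namalwa. L1236 had 56 peaks, L428 had 20 and L591 had 23, against 6 in Reh and 0 in Namalwa. Every Hodgkin line therefore lay above both non-Hodgkin lines. Cut into tiles of 220 kb, the genome held 9279 tiles with a peak in any line, and 13.6% of them also had more peaks in each Hodgkin line than in either non-Hodgkin line. Peaks covered 26940 bp of the window in L1236, 7530 bp in L428 and 14390 bp in L591, against 1770 bp in Reh. That is 12.2%, 3.42% and 6.54% of its length in the Hodgkin lines and 0.805% in Reh.

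Counted against the other tiles, the window ranked number 11 in L1236, 42 in L428 and 17 in L591, against 1244 in Reh. The median tile held 1 peak in L1236, 1 in L428 and 2 in L591, against 1 in Reh and 0 in Namalwa, where 6442 tiles had no peak. No other tile reached the window's count in all 3 Hodgkin lines at the same time (1 tile of 9279, 0.0108%, the window itself). The tiles were laid so that the window is itself a tile, while other dense stretches may be cut by tile edges. The window was also chosen for its peaks and its own counts set the threshold, so this share is only a description. Thresholds read off the window itself, at least the 20 peaks of L428 in each Hodgkin line and at most the 6 peaks of Reh in both other lines, were met by 3 tiles, this one included (0.0323%).

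**Figure D1:**
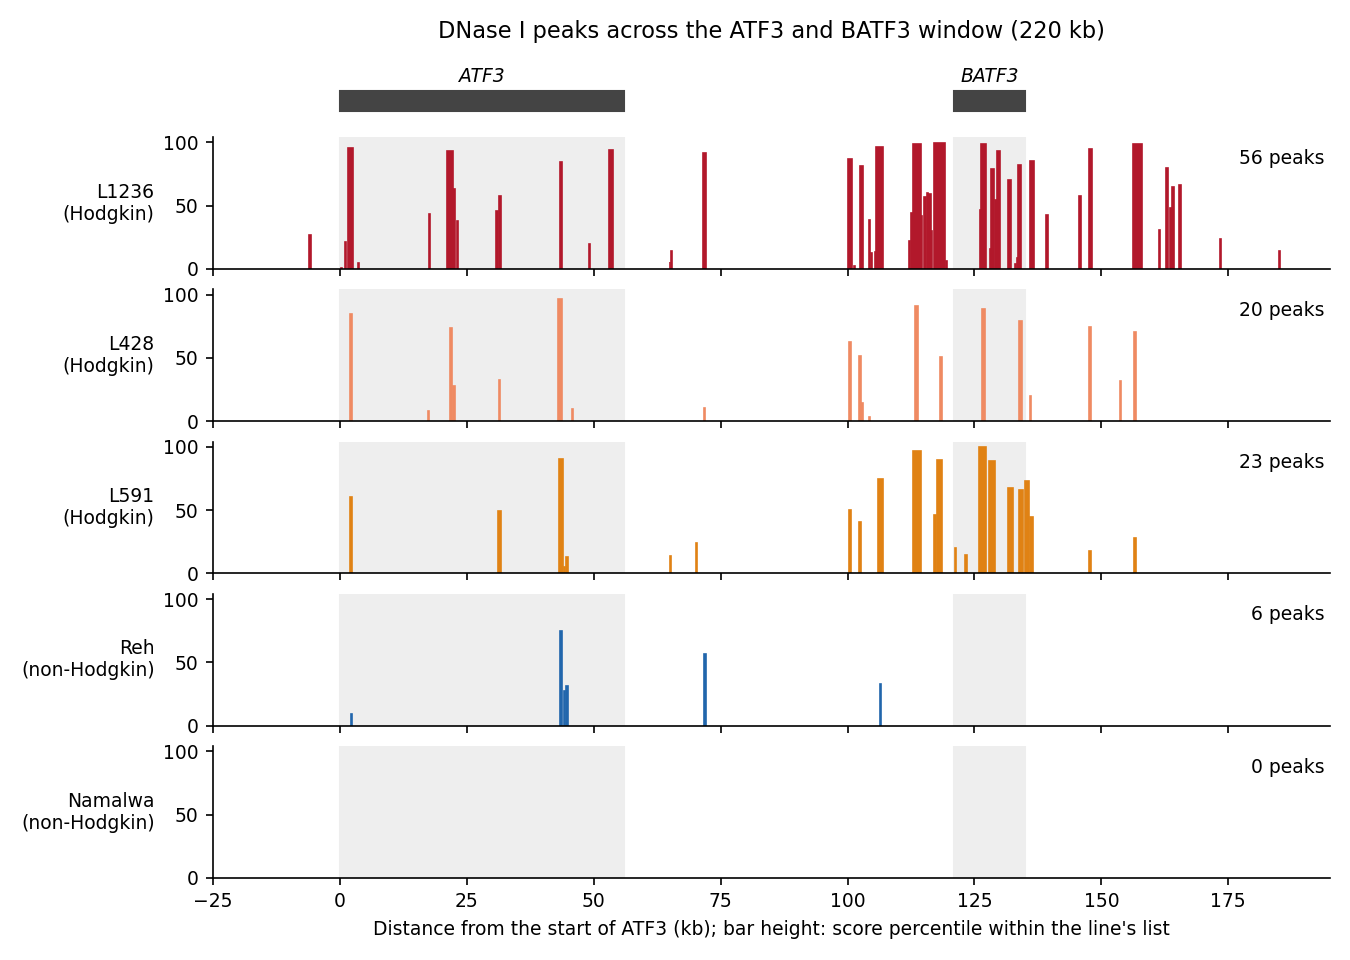
Peaks of the 5 lines across the 220 kb window; the horizontal axis is the distance from the start of ATF3 in kb, each bar is a peak drawn at its width, its height is the score percentile within that line's list, and grey bands mark ATF3 and BATF3. The Hodgkin lines have 56, 20 and 23 peaks spread from ATF3 to beyond BATF3, and the 6 Reh peaks end 106 kb from the start of ATF3.

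The density stopped at the edges of the window on the ATF3 side and faded on the BATF3 side. In the 220 kb before it, L1236 had 4 peaks, L428 had 2 and L591 had 5, against 3 in Reh and 1 in Namalwa. In the 220 kb after it the counts were 18, 9 and 10 in the same Hodgkin lines, against 6 in Reh and 2 in Namalwa. Over 5 tiles on each side, the highest count reached 18 in L1236, 9 in L428 and 10 in L591, against 6 in Reh and 2 in Namalwa. The 10 surrounding tiles together held 54 L1236 peaks, 31 L428 peaks and 28 L591 peaks, against 23 Reh peaks and 8 Namalwa peaks. The copy number of this stretch in each line was not tested.

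**Figure D2:**
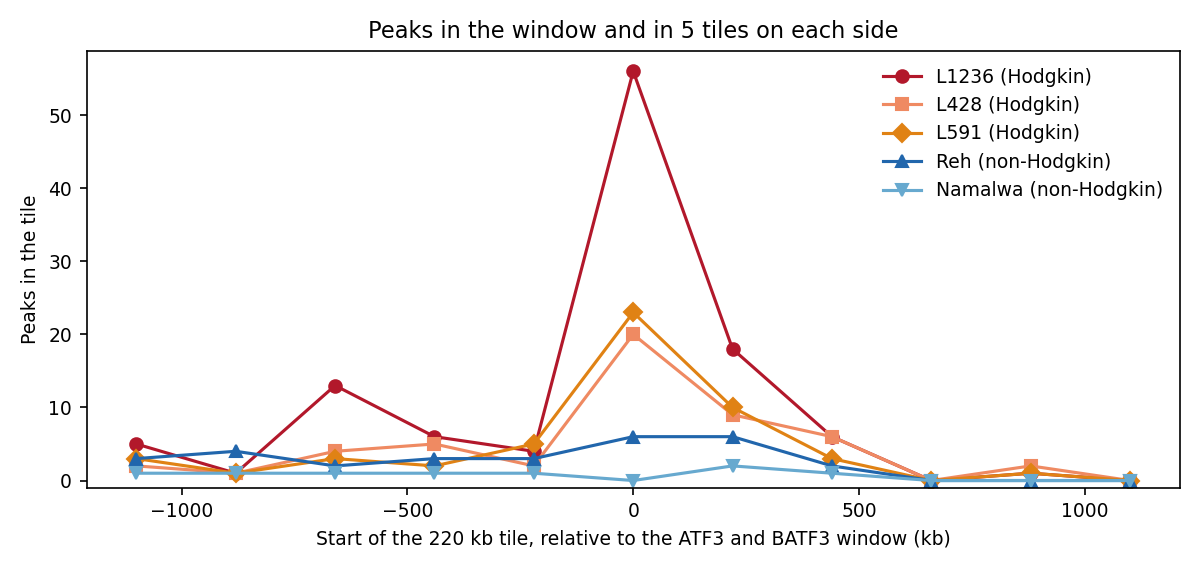
Number of peaks per 220 kb tile (vertical axis) in the window and in 5 tiles on each side, by the start of the tile relative to the window in kb (horizontal axis), 1 line of points per cell line. L1236 reaches 56, L591 23 and L428 20 in the window itself, while Reh has 6 both there and in the next tile.

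All edges of the window lay in stretches without peaks. The last peak before it ended 51.1 kb outside in L1236, 51.2 kb in L428 and 27.1 kb in L591, against 51.3 kb in Reh and 125 kb in Namalwa. The first peak inside was at 210798991 to 210799230 in L1236 (percentile 26.8), and at 210807071 to 210807430 in both L428 (84.5) and L591 (60.2), against 210807131 to 210807290 in Reh (8.83). At the other edge the last peak inside was at 210990001 to 210990190 in L1236 (percentile 14.1), 210961451 to 210961890 in L428 (70.7) and 210961491 to 210961830 in L591 (27.9), against 210911311 to 210911540 in Reh (33.0). The next peak after the window began between 31.3 and 31.5 kb outside it in all 5 lines, at percentile 27.0 for L1236, 74.5 for L428 and 86.4 for L591, against 82.0 in Reh and 76.1 in Namalwa. Namalwa thus has a peak at the same place as the other lines just past the window, although it has none inside. Since 6442 of the 9279 tiles had no Namalwa peak, its absence inside carries little weight.

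Within the window, peak coverage was highest over BATF3 in each of the Hodgkin lines. For counts by stretch, each peak was placed by its centre. Before, after, lower and upper refer to rising position on the chromosome and not to the direction in which BATF3 is transcribed. Over the 14 kb of BATF3, L1236 had 10 peaks covering 30.4% of the gene, L428 had 2 covering 8.14% and L591 had 6 covering 32.9%, against no peak in Reh or Namalwa. Over the 56 kb of ATF3, L1236 had 13 peaks, L428 had 7 and L591 had 5, against 4 in Reh. These covered 10.2%, 4.39% and 3.93% of ATF3 in the Hodgkin lines and 2.07% in Reh. At ATF3 the Reh count was thus close to that of L591, whereas at BATF3, the shorter stretch, Reh had none. Of the 4 Reh peaks at ATF3, 3 lay within 1.52 kb. Reh had 0.273 peaks per 10 kb over the window, so its lack of a peak in 14 kb carries little weight.

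The 65 kb between the genes held 20 peaks of L1236, 7 of L428 and 8 of L591, against 2 of Reh. In the 60 kb after BATF3 there were 12 peaks of L1236, 4 of L428 and 4 of L591, against none of Reh. The 25 kb before ATF3 held 1 L1236 peak and no other. Between 210877071 and 210905060, 28.0 kb, no line had a peak. The peaks between ATF3 and BATF3 thus fell into a small set near ATF3 and a larger one next to BATF3. They were not placed relative to the genes that lie between these.

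**Figure D3:**
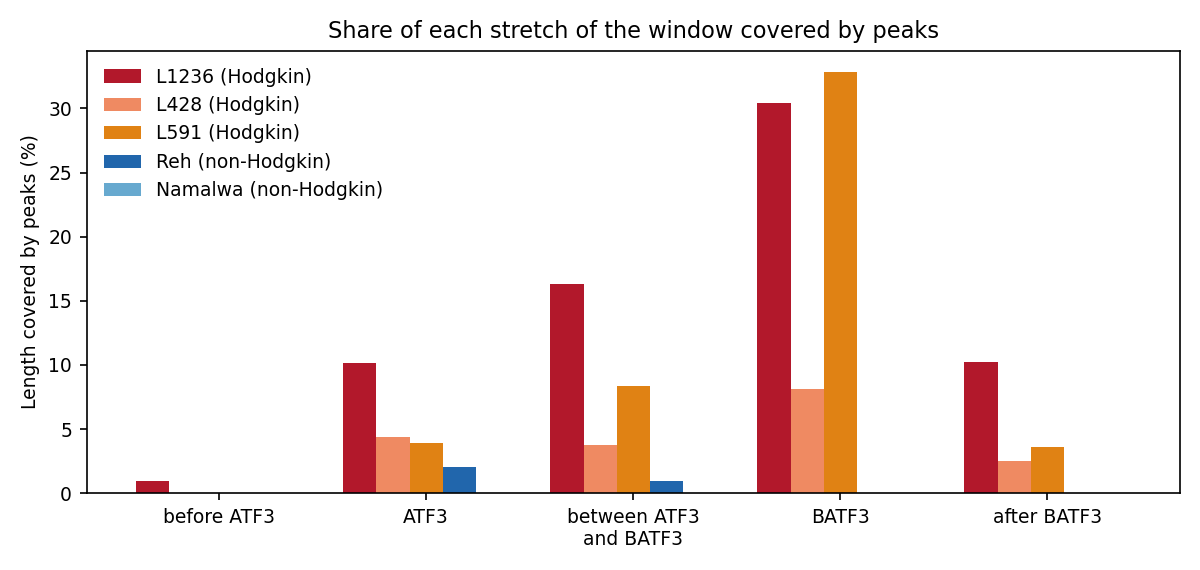
Share of each stretch covered by peaks, in percent (vertical axis), for the 5 stretches of the window in genomic order (horizontal axis), 1 bar per cell line. Coverage is highest over BATF3 in L591 (32.9%) and L1236 (30.4%), with 8.14% in L428 and none in Reh and Namalwa.

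Reh had its last peak of the window at 210911540, and the next Reh peak began at 211031511, leaving 120 kb without one. That stretch holds the whole of BATF3. In the part of it inside the window, L1236 had 32 of its 56 peaks, L428 had 8 of 20 and L591 had 13 of 23. The Namalwa stretch without a peak ran from 210655041 to 211031520, 376 kb, and so took in both genes. Long stretches without a peak were common in these lists. The median tile of 220 kb held 1 peak in Reh and 0 in Namalwa, where 6442 of the 9279 tiles had none. Whether the gaps named here are longer than others in the same lists was not tested, so their lengths are a description only.

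Of the 61 merged regions, 10 were Hodgkin-only, with peaks of L1236, L428 and L591 and none of Reh or Namalwa. That is 16.4% of the window's regions, where the same class made up 4.33% of all merged regions. Of the 10, 1 lay in ATF3, 4 between the genes, 2 in BATF3 and 3 after BATF3, and 7 of them lay past the last Reh peak. The Hodgkin lines shared 12 regions when those with Reh are counted, and 2 of the 12 (16.7%) also had a Reh peak, against 67.8% of the 7998 such regions in all lists. Neither of these 2 had a Namalwa peak, which 55.8% of all regions shared by the Hodgkin lines and Reh did have. Reh had a peak in 6 of the 61 regions (9.84%), against 44.0% of all merged regions, and Namalwa in 0, against 8.44%. Of the remaining regions, 9 belonged to 2 lines and 38 (62.3%) to 1 line, where 62.9% of all merged regions belonged to 1 line. L1236 alone held 32 of the 61 regions (52.5%), against 19.8% of all merged regions, which lowers the share of regions with a Reh peak. By count Reh was not low here, with 6 peaks where its median tile held 1. The shares describe a window chosen for its peaks and were not tested.

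The region with the highest scores over BATF3 spanned 210930991 to 210932250, inside the gene. Its strongest L1236 peak, at 210931371 to 210932200, had percentile 98.7, the L428 peak at 210931471 to 210932010 had 88.8, and the L591 peak at 210930991 to 210932250 had 99.6. The L591 peak was the highest of that line in the window and number 115 of its whole list. Neither Reh nor Namalwa had a peak there. L1236 had a further peak joined to it, from 210931011 to 210931360.

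A region at the other end of BATF3, 210938671 to 210939490, was also open in all 3 Hodgkin lines. Its percentile was 81.8 for L1236, 78.7 for L428 and 65.6 for L591. It ends within 1 kb of the upper end of BATF3 as defined here. The L428 peak of this region was 540 bp and the L1236 peak 730 bp from that end. In L591 a separate peak of 900 bp, from 210939941 to 210940840 (percentile 73.2), spanned the end itself, and no other line had a peak there. Another shared region followed at 210940911 to 210941660, at percentile 84.9 for L1236, 20.0 for L428 and 44.1 for L591. At the lower end of BATF3 the nearest peak was 111 bp away in L591 (210926111 to 210926330, percentile 20.1), 1410 bp in L1236 and 2420 bp in L428, against 14460 bp in Reh.

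Inside BATF3, L1236 and L591 shared 2 more regions that L428 lacked. At 210932801 to 210934050 the L591 peak of 1250 bp had percentile 88.8 and the stronger of 2 L1236 peaks had 78.7. At 210936691 the peaks of both lines began at the same position, with percentile 70.5 in L1236 and 67.1 in L591. L591 alone had weak peaks at 210926111 and 210928231 to 210928570 (percentile 14.7), and L1236 alone had 4 peaks in the gene. The strongest of these, at 210934541 to 210935070, had percentile 93.1 and was picked out after its value was seen.

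Of the regions between the genes that all 3 Hodgkin lines shared, the 2 nearest to BATF3 were broad. At 210917941 to 210919440, between 6.56 and 8.06 kb below the lower end of BATF3, the L1236 peak of 1450 bp had percentile 98.8, the L428 peak of 700 bp had 91.3 and the L591 peak of 1460 bp had 96.5. It ranked second of the window's peaks in both L428 and L591, and it was the region with the highest minimum over the 3 lines. At 210921951 to 210924220 stood the widest peak of the window, 2190 bp in L1236 from 210922031, at percentile 99.3 and number 175 of the L1236 list. The same region had percentile 90.0 in L591, as the stronger of 2 peaks, and 50.9 in L428, where the peak was 330 bp wide. L1236 alone had further peaks in the gaps, so that 10 of its peaks within 1 kb of each other covered 81.0% of the 7.42 kb from 210917171 to 210924590.

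Further from BATF3, a pair of weaker shared regions lay at 210905061 to 210905850 and 210907171 to 210908080. At the first place L428 had percentile 62.4, L591 had 50.4 and L1236 had 86.5. At the second place L428 had 51.3, L591 had 40.5 and L1236 had 81.6. On the far side of BATF3, the region 210952491 to 210953210 had percentile 94.5 for L1236, 74.3 for L428 and 17.3 for L591. The region 210961151 to 210962950 had 98.9, 70.7 and 27.9 in the same lines, and its L1236 peak of 1800 bp was the second highest of that line in the window. In both of the last named regions L591 ranked low in its list, whereas at the BATF3 region of 210930991 it was highest of all.

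ATF3 held the 2 regions that the Hodgkin lines shared with Reh. The region 210848021 to 210849040, centred 43.5 kb from the start of ATF3, had percentile 84.7 for L1236, 96.8 for L428 and 90.6 for L591, against 74.6 in Reh. It was the highest peak of the window in L428 and in Reh and the third highest in L591, and Reh reached its highest rank of the window here. Its L1236 peak spanned 480 bp, the L428 peak 800 bp and the L591 peak 790 bp, against 500 bp in Reh. Directly after it, at 210849061 to 210849320 and 210849551 to 210849860, L591 and Reh shared 2 regions without the other Hodgkin lines. These were weak, with percentile 4.91 and 12.6 in L591, against 27.2 and 30.9 in Reh.

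The other region of 4 lines, 210806641 to 210807560, lay 2.1 kb past the start of ATF3. Its percentile was 95.7 for L1236, 84.5 for L428 and 60.2 for L591, against 8.83 in Reh, where the peak was 160 bp wide. The L1236 peak there spanned 920 bp, and those of L428 and L591 had the same borders, 210807071 to 210807430. Closer to the gene's start L1236 alone had small peaks at 210805261 to 210805420, at percentile 0.614 the weakest of its peaks in the window, and at 210806001 to 210806230, at 21.2.

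One region of ATF3 belonged to the Hodgkin lines alone. At 210836221 to 210836700 the percentile was 57.2 for L1236, 32.5 for L428 and 49.3 for L591, which made it the weakest of the 10 in L1236. L1236 and L428 shared 3 regions in ATF3 that L591 lacked, at 210822361 to 210822720, 210826121 to 210827200 and 210827291 to 210827710. The strongest of them, the second, had percentile 93.2 in L1236 and 73.9 in L428. Within 9 kb of the end of ATF3 only L1236 had peaks. The nearest, at 210858041 to 210858720, had percentile 94.0, the highest of those that L1236 had to itself.

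Past the end of ATF3, Reh had its remaining 2 peaks of the window. At 210876501 to 210877070 L1236 had percentile 91.5 and L428 had 10.4, against 56.8 in Reh, and L591 had none. At 210910611 to 210912060 it was 95.9 in L1236 and 74.8 in L591, against 33.0 in Reh, and L428 had none. The L1236 peak there was 1360 bp and the L591 peak 980 bp wide, against 230 bp in Reh. Every one of the 6 Reh peaks thus lay in a region with a Hodgkin peak, 4 with L1236 (against 31.5% of the Reh list), 3 with L428 (38.6%) and 5 with L591 (45.2%). The list shares are not a like baseline for a window this dense in Hodgkin peaks.

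**Figure D4:**
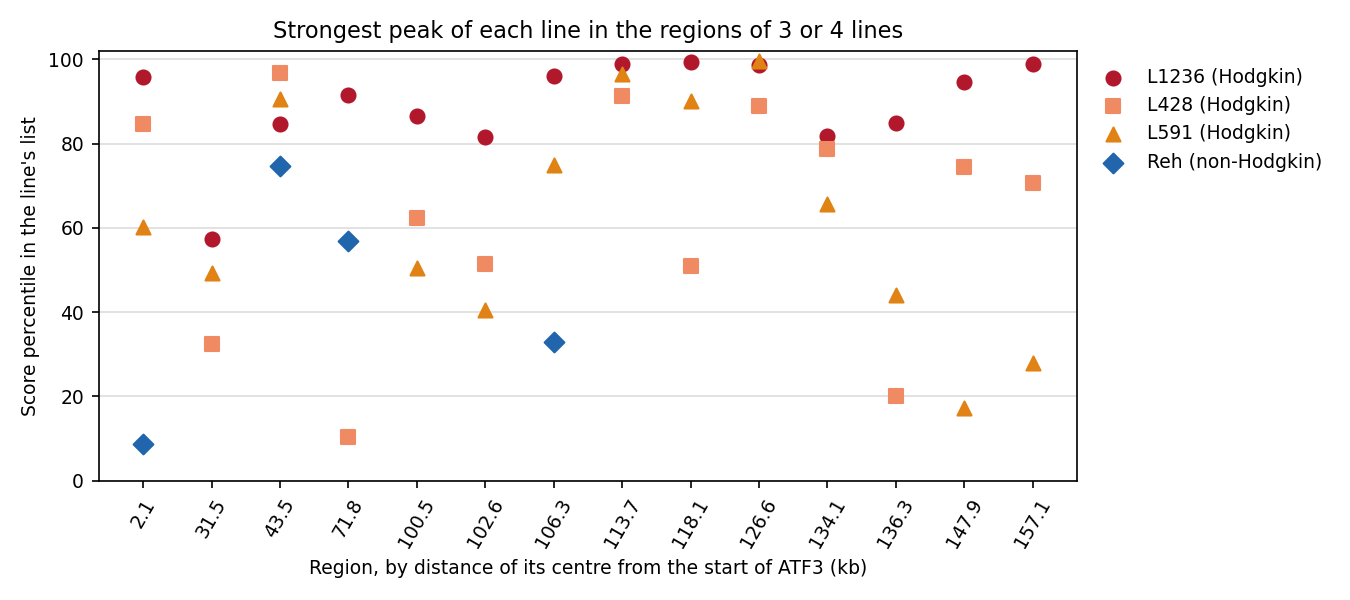
Score percentile within the line's list (vertical axis) of the strongest peak of each line in the 14 regions with peaks in 3 or 4 lines, ordered by the distance of the region's centre from the start of ATF3 in kb (horizontal axis). L1236 is highest in most regions, L428 leads at 43.5 kb, L591 at 126.6 kb, and Reh appears in 4 of them.

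Across the 10 Hodgkin-only regions, L1236 had the higher ranks. The percentile ran from 57.2 through a median of 90.5 to 99.3 in L1236, from 20.0 through 66.6 to 91.3 in L428 and from 17.3 through 49.8 to 99.6 in L591. Over the 2566 regions of this class in all lists, the median was 64.6 for L1236, 60.8 for L428 and 60.5 for L591. All 10 regions lay above the median of the list in L1236, 8 did in L428 and 5 in L591. Of the 12 regions with a peak in all 3 Hodgkin lines, L1236 had the highest percentile in 10, L428 in 1 and L591 in 1.

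Over all peaks in the window, however, the Hodgkin lines ranked around the middle of their lists. The percentile ran from 0.614 through a median of 51.0 to 99.3 in L1236, from 3.14 through 51.1 to 96.8 in L428 and from 4.91 through 49.3 to 99.6 in L591, against 8.83 through 31.9 to 74.6 in Reh. In the upper 10% of their lists were 11 peaks of L1236, 2 of L428 and 3 of L591, against 0 of Reh. The median width was 350 bp in L1236, 345 bp in L428 and 480 bp in L591, against 250 bp in Reh, where the medians of the whole lists were 310, 320 and 450 bp, against 320 bp. The window stood out by the number of its peaks rather than by their typical rank.

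Most of the L1236 peaks had no counterpart. The L1236 list is also the one without the quality-trimming mark that the other 4 lists carry, and the part of this in its count was not tested. In L1236, 32 of 56 peaks (57.1%) lay in a region without another line, against 45.8% of the whole L1236 list. In L428 it was 2 of 20 (10.0%, against 22.9% of the list) and in L591 4 of 23 (17.4%, against 27.7%). In Reh it was 0 of 6, against 45.6%. The L1236 peaks without a counterpart were spread over the window, with 7 in ATF3, 11 between the genes, 4 in BATF3, 9 after BATF3 and 1 before ATF3. They were narrow, with a median of 250 bp against 605 bp for the shared L1236 peaks, and their median percentile was 34.4 against 83.3. Of the 32, 10 lay above the median of the L1236 list. Of the 55 gaps between neighbouring L1236 peaks, 19 were 200 bp or less.

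Nearly all L428 peaks of the window lay within the L1236 pattern. L428 peaks fell in a region with an L1236 peak in 18 of 20 cases (90.0%), against 46.0% of the L428 list. For L591 it was 17 of 23 (73.9%), against 41.5%. In the other direction L1236 peaks lay with an L428 peak in 18 of 56 cases (32.1%, against 40.9%) and with an L591 peak in 19 (33.9%, against 45.2%). Sharing between L428 and L591 was near that of the lists, with 13 of 20 L428 peaks (65.0%, against 67.9%) and 13 of 23 L591 peaks (56.5%, against 56.2%). The window was chosen for its peaks and ranked number 11 of 9279 tiles in L1236, so the list shares are not a like baseline. In bases, 82.5% of the L428 length and 70.1% of the L591 length lay in L1236 peaks, which covered 12.2% of the window. All 3 Hodgkin lines were covered together at 4510 bp. Of the Reh length, 70.1% lay in L1236 peaks, 46.9% in L428 peaks and 78.5% in L591 peaks.

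The order of the scores was similar between the Hodgkin lines only in part. Across the window's shared regions, Spearman's rho of the score was 0.54 for L1236 with L428 (17 regions), 0.36 for L1236 with L591 (16) and 0.58 for L428 with L591 (12). Over all shared regions of the lists it was 0.38, 0.40 and 0.59. Regions of one library share its depth and are not replicates, so no p is given. The centres of the strongest peaks lay a median of 140 bp apart between L1236 and L428, 130 bp between L1236 and L591 and 50 bp between L428 and L591, where the medians over all shared regions were 65, 75 and 50 bp.

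Counts were also taken with lists of equal length, at which the Namalwa list is unchanged. The window was chosen by the presence and score of these peaks, so these counts are a description and not separate support. With each list limited to its 5760 highest-scoring peaks, 18 peaks of L1236, 5 of L428 and 5 of L591 remained in the window, against 0 of Reh and 0 of Namalwa. At that length 5.56% of 5356 tiles had more peaks in each Hodgkin line than in either non-Hodgkin line. The number of Hodgkin-only regions was then 3 of 18 in the window, against 2.68% of the 13708 merged regions of the shortened lists. At 6 U/ml L1236 had 56 peaks and L428 had 20 in the window, against 6 in Reh, and at 12 U/ml it held 23 in L591, against 0 in Namalwa. Because the Hodgkin lines do not overlap the others, any subset keeps this order, and an effect of the DNase I concentration was not tested.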

How the data were processed

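DNase-seq libraries of 5 cell lines, 1 per line, were assigned to the Hodgkin or non-Hodgkin group as labelled. Per the submitters' processing notes, Bowtie 1.00 and the build hg18 were used. Per the columns of the files, reads were extended to 146 bp and binned at 10 bp. The authors deposited 1 peak list per line, whose score is the area of the peak (always a multiple of 8), made before deposit with no stated scaling per the file headers and names. How peaks were called, at which threshold and from how many reads is not given in the sources used here. The L1236 list lacks the mark qcTrimmed that the other 4 carry, and a growth note spells L591 differently from its title.

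The window, its members, the motifs and the lists were chosen with earlier results of these data known. Peaks sharing at least 1 bp were merged over all lines, on chromosomes 1 to 22 and X, with 1-based hg18 positions. Percentiles are ranks within a list. Tiles of 220 kb count peaks by centre and were laid so that the window is a tile. Regions named in full were those of 3 or more lines, those with a Reh peak, each line's 3 highest-scoring peaks and the peaks nearest to the gene ends. Others named were picked by position or after their values were seen. The merging was tested on simulated data. Python 3.11.15, numpy 2.4.6, pandas 2.3.3 and matplotlib 3.10.9 were used. Alternatives changed the overlap, peak width, list length, score threshold, joining, window edges and tile placement, and left out each line. No genome or annotation of hg18 was used here, so peak sequences were not read and peaks of other AP-1 genes were not assigned.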

Additional observations from a re-analysis of the deposited data

How the results depend on the processing

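The window held 10 Hodgkin-only regions, and between 7 and 10 with other overlap rules, peaks set to 200 bp, peaks up to 200 bp apart joined, or other window edges. Leaving out 1 line gave 10 to 14. With lists of equal length the count was 3, and with the upper 50% of each list 6, both from fewer peaks. Peak counts with lists of equal length were 18 in L1236, 5 in L428 and 5 in L591, against 0 in Reh. With the upper 50% of each list they were 28, 11 and 11 in the same Hodgkin lines, against 2 in Reh. Widening the window by 50 kb added 1 Namalwa peak. The other 32 of 43 alternative values stayed within 1.5 times the main count or rank, Namalwa counts that stayed at 0 included. Among them, joining peaks up to 200 bp apart lowered the L1236 count from 56 to 39. The same step took L428 from 20 to 19 and L591 from 23 to 20, and left Reh at 6. Every alternative that counted peaks kept each Hodgkin line above both non-Hodgkin lines, an order that the choice of the window by these peaks favours. No paired analysis was possible because no test was run, and the replicate numbers only name the lines and do not pair them. Unknown depth and a Namalwa list of 5760 peaks limit what an absent peak shows.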
